A study of Mus musculus with 8 samples.

Results

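The Toll-like receptor and NF-kappaB pathway was followed through 44 genes, taken by symbol from a deposited table of read counts for 55421 mouse genes. They comprise 14 receptors and co-receptors, 1 ligand, 9 adaptors and receptor-proximal kinases and ligases, 7 kinase-complex genes, 5 NF-kappaB subunits and 8 inhibitors. All 44 symbols were found, and all 44 passed the filter on low counts that kept 22089 genes for testing. RNA-seq was carried out on microglia, the macrophages that reside in the brain, isolated from 6-month-old C57BL/6 mice. There were 4 groups of 2 libraries. WT and Calhm2 cKO (conditional knockout) mice were free of Alzheimer's disease, and WT/AD and Calhm2 cKO/AD mice had the disease. The labels name neither the Cre driver, nor the disease model, nor the number of animals behind a library. The p-values set a difference between groups against the spread between libraries within groups, estimated over all 4 groups. That spread may be technical. Calhm2 encodes a membrane channel of the calcium homeostasis modulators, and the design asks how its loss changes microglia with and without disease.

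In this pathway, Toll-like receptors bind microbial or damage-associated ligands and signal through adaptors such as MyD88 and TRIF to the IRAK kinases and TRAF ubiquitin ligases. These activate the TAK1 complex and then the IkappaB kinase (IKK) complex, which marks inhibitors of the IkappaB family for destruction and so frees NF-kappaB dimers to enter the nucleus. TNF receptors feed into the same kinases. Several inhibitors, among them Nfkbia and Tnfaip3, are themselves NF-kappaB target genes and form negative feedback loops. In microglia the pathway is best known for the inflammatory response to bacterial lipopolysaccharide and to protein aggregates.

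Levels are given as CPM (counts per 1000000 counts of the scaled library size), and differences as log2 fold changes with their standard error (SE). A gene was called where the adjusted p of edgeR's quasi-likelihood test, adjusted over all 22089 genes, was under 0.05. Library totals ranged from 18218165 to 25774587 counts. Calhm2, the targeted gene, measured 10.3 and 12 CPM in WT, 4.76 and 4.70 CPM in the cKO libraries, 16.4 and 13.7 CPM in WT/AD, and 2.5 and 1.56 CPM in cKO/AD, so that both knockout groups lay below both groups without the knockout. The cKO/AD libraries stood apart from the others. Members differed by more than 2-fold between replicates for 17 of 44 genes in cKO/AD, against 3 genes in WT, 2 genes in cKO and 2 genes in WT/AD. This spread was not particular to the members. The median absolute log2 difference between the cKO/AD replicates was 0.81 for members and 0.81 for all tested genes. The first cKO/AD library had counts for 18693 genes and for 40 members, the second for 22088 genes and 43 members, and the other 6 libraries for 24342 to 25988 genes and all 44 members. Mitochondrial genes took 4.73% of the counts in the first cKO/AD library and 1.37% to 2.37% elsewhere.

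The microglial label was checked with 14 marker genes, none of which was at 0 in any library. Their summed level was 35740 and 39170 CPM in WT, 21710 and 25260 CPM in the cKO libraries, 28050 and 29570 CPM in WT/AD, and 14680 and 19510 CPM in cKO/AD. Between cKO/AD and WT/AD, 5 of the 14 markers fell and none rose, beside 10.2% of all tested genes that fell and 7.82% that rose. Without overlap, 8 were lower and 3 higher in cKO/AD, beside 35.1% and 24.3% of all tested genes. The 3 higher ones were P2ry12, at 7233 and 7401 CPM beside 4478 and 6049 in WT/AD, Gpr34 and Itgam. Of 12 endothelial markers 4 fell, and of 9 mural cell markers 3. The sum of 8 oligodendrocyte markers was 4459 to 6449 CPM in the other groups and 9836 and 8006 in cKO/AD, although 4 of the 8 fell and 1 rose against WT/AD. The sum of 12 neutrophil markers was 3071 and 3183 CPM in WT and 1053 to 1535 in the other groups. The 18 immediate-early genes, which respond to handling of cells, summed to 1476 and 1497 CPM in WT and 981 and 1068 CPM in the cKO libraries. They summed to 1310 and 1208 CPM in WT/AD, and 625 and 818 CPM in cKO/AD. The part of these shifts in the results was not tested. In RNA from many cells, fewer microglia and less RNA per cell cannot be told apart.

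**Figure D1:**
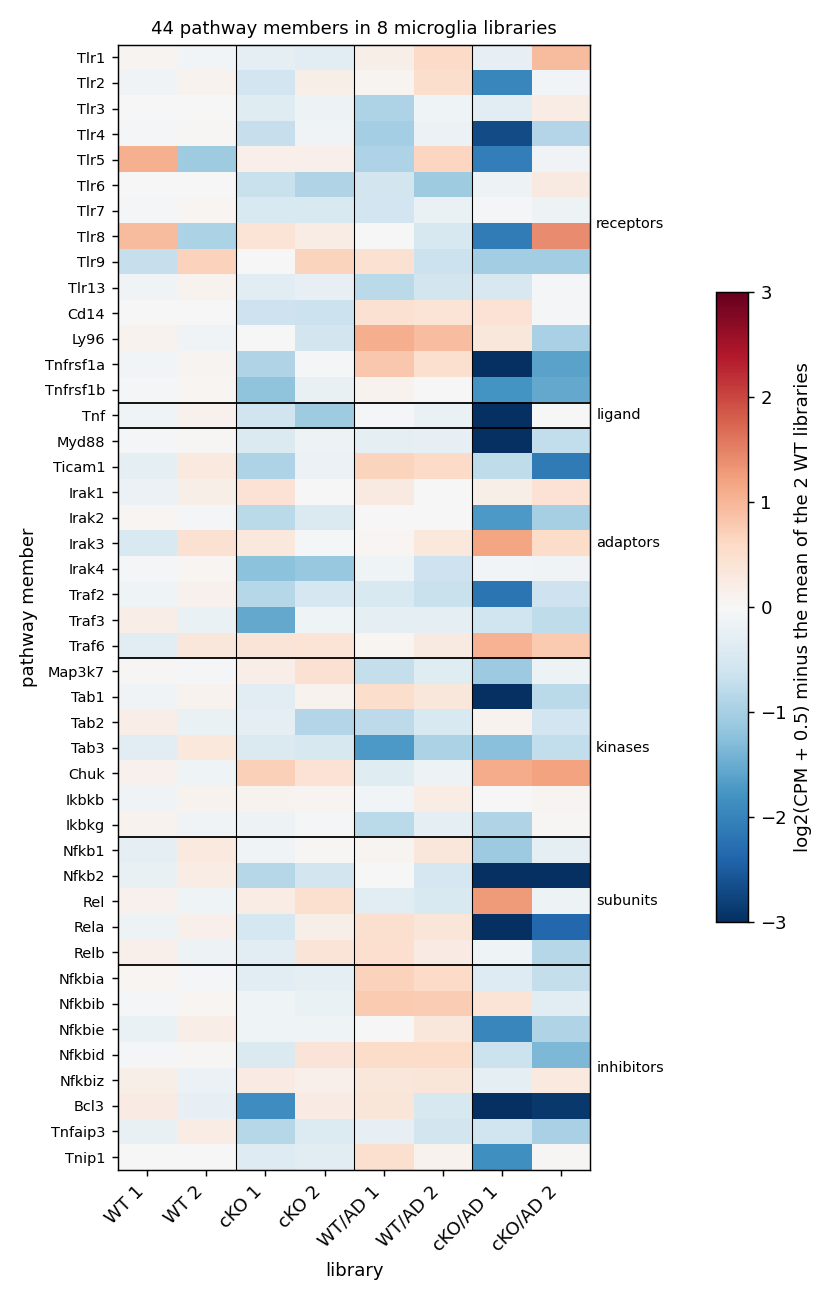
Each row is a member, grouped by role, and each column a library; colour is log2(CPM + 0.5) minus the mean of the WT libraries, with the scale stopped at -3 and 3. The darkest blue cells lie in the cKO/AD columns, for Nfkb2, Rela, Bcl3, Tnfrsf1a, Tab1, Tnf and Myd88 among others, and several of them in the first cKO/AD library only.

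The members were called in a single comparison, cKO/AD against WT/AD, where 8 fell and 1 rose. The genes that fell were the TNF receptor Tnfrsf1b, the adaptor kinase Irak2, the NF-kappaB subunits Rela and Nfkb2, and the inhibitors Nfkbia, Nfkbie, Nfkbid and Bcl3. Chuk, which encodes the IKK-alpha kinase, rose. The 9 called members are 20.5% of the 44, beside 18% of all tested genes (10.2% lower and 7.82% higher) and 27.8% of the 12989 genes with a mean of at least 5 CPM, a level that 38 members reached. The share called was therefore near the background and is not a result about the pathway as a whole. The median member log2 fold change was -0.67, and also -0.67 with Tlr9 set at its bound, beside -0.14 over all tested genes. DESeq2 called 14 members and limma-voom 13, beside 30.9% and 21.8% of the genes they tested. The groups did not overlap, with cKO/AD lower, for 22 members (50%, beside 35.1% of all tested genes), and with cKO/AD higher for 8 (18.2%, beside 24.3%).

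The calls changed when single libraries were left out and when a trend with base composition was removed. Several members lost the call when a library of WT or the second of WT/AD was left out. Every called member lost it without the first WT/AD library. More were called when a cKO/AD library was left out. With 1 library left out at a time, the log2 fold change ranged from -4.998 to -2.81 for Rela and from 1.319 to 1.513 for Chuk. No member was called when only these groups were fitted. The share of all genes called in these fits is not given here, and the shifts are not a result about the pathway. Genes with a high GC content (the share of G and C bases in the transcript) were low in the cKO/AD libraries. Across 44 members, GC content and the log2 fold change correlated at r = -0.61 (rho = -0.69), a description over genes that share the same libraries. Of 16 members with at least 55% GC, 15 had a negative log2 fold change and 8 were called, with a median of -1.64 beside -1.43 for all genes of that GC class, of which 33.7% were called. Of 10 members under 45% GC, 7 had a positive log2 fold change and Chuk was called, with a median of 0.42 beside 0.65 for all genes of the class, of which 16.9% were called. A correction that removes each library's trend with GC content left Rela and Chuk called, added Irak1 among the calls, beside 6.29% of all genes called, and put the member median at -0.28 beside 0 for all genes. It reversed the sign of 13 of 44 members. The trend ran with the groups: its log2 slope per 10 points of GC was -1.116 and -0.486 in cKO/AD, and 0.694 and 0.513 in WT/AD. Such a trend and a group difference along it cannot be told apart here, and the part of each was not tested.

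**Figure D2:**
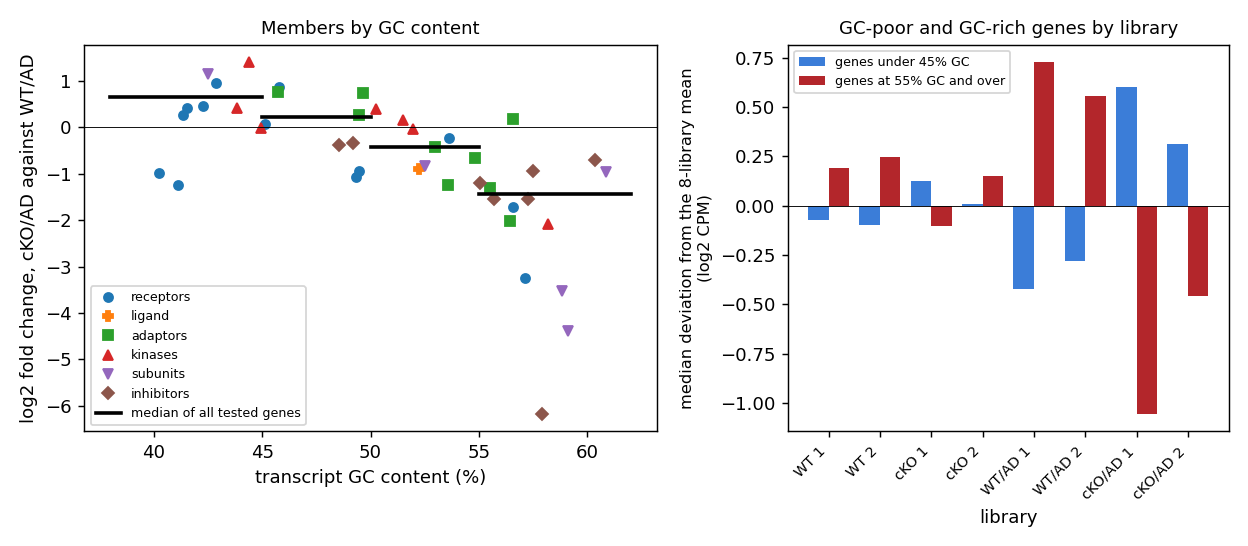
Left, the GC content of each member's transcript (x axis, %) against its log2 fold change for cKO/AD against WT/AD, with the median of all tested genes in 4 GC classes as black lines; Tlr9, with 0 counts in cKO/AD, is left out. Members followed the class medians downwards, with Rela, Nfkb2 and Bcl3 further below. Right, the median deviation from the 8-library mean (log2 CPM) of GC-poor and GC-rich genes in each library, which was 0.60 and -1.06 in the first cKO/AD library and -0.42 and 0.73 in the first WT/AD library.

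Promoter sequence was read from RefSeq (GRCm38.p6) from 250 bases before to 50 bases after the start of transcription, for 48 windows of 35 members. No window was at hand for Tlr4, Tlr7, Cd14, Ly96, Tab1, Ikbkb, Nfkb1, Relb and Nfkbiz. The 10-base NF-kappaB consensus, searched on both strands, was found in 13 of the 48 windows, or 27.1%, of 11 members, beside 5.8% of 32851 windows of all genes. A match describes the letters in the window and nothing more. Some genes have several windows, which can overlap. The Nfkb2 windows that start at 46305445 and 46305680 share the same match, which is counted in each. The Nfkbid windows that start at 30421481 and 30423025 hold no match. The 4 windows shown first belong to subunit and inhibitor genes that fell in cKO/AD against WT/AD and hold a match, in capitals. The last pair belongs to Rela and Chuk, the genes whose calls stood with the GC correction, and holds no match.
Nfkbia promoter, chr12:55492598-55492897, minus strand: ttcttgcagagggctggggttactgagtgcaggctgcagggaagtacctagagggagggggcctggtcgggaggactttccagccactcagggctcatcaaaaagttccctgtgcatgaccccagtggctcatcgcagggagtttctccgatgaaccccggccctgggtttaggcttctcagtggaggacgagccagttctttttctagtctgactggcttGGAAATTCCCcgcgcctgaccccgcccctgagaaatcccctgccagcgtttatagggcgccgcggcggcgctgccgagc
Nfkb2 promoter, chr19:46304487-46304786, plus strand: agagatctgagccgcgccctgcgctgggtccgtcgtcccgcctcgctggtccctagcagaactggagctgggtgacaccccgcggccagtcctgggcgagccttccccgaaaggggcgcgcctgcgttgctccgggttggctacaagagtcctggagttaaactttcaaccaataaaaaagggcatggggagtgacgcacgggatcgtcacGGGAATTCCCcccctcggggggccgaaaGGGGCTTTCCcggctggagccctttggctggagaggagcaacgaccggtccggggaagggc
Bcl3 promoter, chr7:19822706-19823005, minus strand: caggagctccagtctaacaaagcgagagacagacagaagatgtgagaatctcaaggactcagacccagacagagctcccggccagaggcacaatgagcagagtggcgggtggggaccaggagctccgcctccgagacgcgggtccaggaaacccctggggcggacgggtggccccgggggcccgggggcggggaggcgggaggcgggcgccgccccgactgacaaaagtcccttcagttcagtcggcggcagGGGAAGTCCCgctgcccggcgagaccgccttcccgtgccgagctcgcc
Nfkbid promoter, chr7:30422156-30422455, plus strand: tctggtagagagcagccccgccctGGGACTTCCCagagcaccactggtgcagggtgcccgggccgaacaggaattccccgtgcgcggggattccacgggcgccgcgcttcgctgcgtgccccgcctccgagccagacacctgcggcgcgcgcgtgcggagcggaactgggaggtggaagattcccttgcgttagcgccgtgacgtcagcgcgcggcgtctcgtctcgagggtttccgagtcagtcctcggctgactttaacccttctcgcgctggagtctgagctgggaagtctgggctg
Rela promoter, chr19:5637291-5637590, plus strand: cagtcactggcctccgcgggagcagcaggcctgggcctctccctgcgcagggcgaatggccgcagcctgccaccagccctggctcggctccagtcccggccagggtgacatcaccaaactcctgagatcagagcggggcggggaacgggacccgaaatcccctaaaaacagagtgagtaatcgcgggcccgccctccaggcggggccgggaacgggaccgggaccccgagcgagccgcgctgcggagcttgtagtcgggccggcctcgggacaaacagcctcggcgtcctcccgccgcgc
Chuk promoter, chr19:44107428-44107727, minus strand: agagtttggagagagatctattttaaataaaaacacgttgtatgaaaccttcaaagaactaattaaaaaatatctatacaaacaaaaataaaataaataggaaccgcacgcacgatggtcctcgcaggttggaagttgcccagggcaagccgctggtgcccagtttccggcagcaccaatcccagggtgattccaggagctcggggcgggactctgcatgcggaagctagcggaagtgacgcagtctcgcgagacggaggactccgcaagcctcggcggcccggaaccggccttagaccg
The match starts 29 bases before the start of transcription in Nfkbia, 39 and 11 bases before it in Nfkb2, at base 3 of the transcript in Bcl3 and 226 bases before it in Nfkbid. Of the 11 members with a match, these 4 (36.4%) were called for cKO/AD against WT/AD, beside 18% of all tested genes; all 4 have at least 55% GC, a class of which 33.7% of genes were called. The other 7, Tlr2, Tlr3, Map3k7, Traf3, Rel, Tnfaip3 and Tnip1, were not called.

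Among the 14 receptors and co-receptors, Tlr13, the mouse sensor of bacterial ribosomal RNA, was the most abundant per length of transcript in WT, at 98.8 CPM per kilobase. It was followed by Cd14, the lipopolysaccharide co-receptor, at 52.2 and Tlr7, a sensor of single-stranded RNA, at 42.7. Tlr9, the sensor of unmethylated CpG DNA, was lowest at 0.187, and Tlr8 and Tlr5 lay at 0.594 and 1.54. Tlr13 measured 392 and 458 CPM in WT, 335 and 358 CPM in the cKO libraries, 242 and 289.9 CPM in WT/AD, and 301 and 411 CPM in cKO/AD. WT/AD lay below WT in both libraries and below cKO/AD, but neither difference was called (log2 -0.68, SE 0.21, adjusted p = 0.415; log2 0.42, SE 0.21, adjusted p = 0.207). Tlr13 was called as lower in WT/AD than in WT when only those groups were fitted (adjusted p = 0.0301), without the first or the second cKO/AD library (adjusted p = 0.0217 and 0.0265) and with a weight per group in voom (adjusted p = 0.0168). Tlr9 measured 0.143 and 1.16 CPM in WT, 0.545 and 1.14 CPM in the cKO libraries, 0.914 and 0.158 CPM in WT/AD, and 0 in both cKO/AD libraries. With 0 against 27 counts it was at least 7.15-fold lower in cKO/AD than in WT/AD, taking 3 counts over the group as the limit that a count of 0 allows, and was not called (adjusted p = 0.111).

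Tnfrsf1b, a TNF receptor without a death domain, was the receptor that fell. It measured 97.8 and 107 CPM in WT, 44.3 and 87.7 CPM in the cKO libraries, 109.9 and 101 CPM in WT/AD, and 29.1 and 34.8 CPM in cKO/AD. Both cKO/AD libraries lay below all 6 others. The log2 fold change for cKO/AD against WT/AD was -1.72 (SE 0.32, adjusted p = 0.0122); it was -0.36 (adjusted p = 0.473) with the GC correction, and the call was lost without the first WT/AD library (adjusted p = 0.0812). Tnfrsf1a, the TNF receptor with a death domain, fitted at -3.24 with an SE of 1.08 and was not called in edgeR (adjusted p = 0.0744), whereas DESeq2 (adjusted p = 0.00343) and limma-voom (adjusted p = 0.0198) called it, with 0.397 and 12 CPM in cKO/AD beside 66.0 and 52.6 in WT/AD. Its cKO/AD libraries were both lower than every other library, but far apart from each other.

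The lipopolysaccharide receptor genes were not called by the main edgeR fit in any of the 5 tests. Tlr4, the signalling receptor, measured 105 and 108 CPM in WT, 65.9 and 98.6 CPM in the cKO libraries, 51.9 and 95 CPM in WT/AD, and 16.2 and 57.7 CPM in cKO/AD. The first library was the lower in all 4 groups, and cKO/AD overlapped with WT/AD (log2 -0.99, SE 0.55, adjusted p = 0.244). With no filter on low counts, edgeR called Tlr4 as lower in cKO/AD than in WT/AD (adjusted p = 0.00835) and than in cKO (adjusted p = 0.00197). Cd14 measured 90.6 and 90.0 CPM in WT, 58.5 and 57.4 CPM in the cKO libraries, 124 and 121 CPM in WT/AD, and 122 and 88.5 CPM in cKO/AD. The cKO libraries were below all others. Cd14 had a log2 difference of -0.64 for cKO against WT (SE 0.21, adjusted p = 0.591) and of 0.86 for cKO/AD against cKO (SE 0.21, adjusted p = 0.0722), which DESeq2 called (adjusted p = 0.00392), as did edgeR with no filter on low counts (adjusted p = 0.0283) and without the second cKO/AD library (adjusted p = 0.000778). Ly96, which encodes the MD-2 subunit that binds lipopolysaccharide on TLR4, stood at 19.2 and 16.9 CPM in WT/AD and at 4.19 to 11.2 in the other groups, with no call (log2 1.05 for WT/AD against WT, SE 0.54, adjusted p = 0.621).

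Tlr2, which recognises bacterial lipoproteins as a dimer with TLR1 or TLR6, measured 78.2 and 89.6 CPM in WT, 56.3 and 94.4 CPM in the cKO libraries, 88.9 and 122 CPM in WT/AD, and 21.1 and 79.6 CPM in cKO/AD. The cKO/AD libraries differed widely and both lay below WT/AD (log2 -1.06, SE 0.55, adjusted p = 0.213). Tlr6, singled out after its values were seen, measured 72.3 and 72.6 CPM in WT, 45.6 and 38.5 CPM in the cKO libraries, 49.1 and 34.5 CPM in WT/AD, and 65.5 and 87.8 CPM in cKO/AD. Both single-condition groups lay below WT and below cKO/AD without overlap. For cKO/AD against WT/AD the log2 difference was 0.87 (SE 0.26), just outside the threshold of edgeR (adjusted p = 0.0524). DESeq2 (adjusted p = 0.00942) and limma-voom (adjusted p = 0.0362) called it as higher. So did edgeR with DESeq2 size factors (adjusted p = 0.0442). The interaction, which sets the knockout difference in diseased mice against that in mice without disease, was 1.66 (SE 0.37) and missed the threshold in edgeR (adjusted p = 0.0677); limma-voom called it (adjusted p = 0.0465), DESeq2 too (adjusted p = 0.00167), and with the GC correction it was 1.27 (adjusted p = 0.172). Tlr1 and Tlr6 are neighbouring genes of similar sequence, so that the division of reads between them is uncertain. The other receptors, Tlr1, Tlr3, Tlr5, Tlr7 and Tlr8, were within -0.94 and 0.95 on the log2 scale for cKO/AD against WT/AD and were not called.

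Tnf, the ligand among the members and the cytokine most closely tied to NF-kappaB, was low in all groups. It measured 5.46 and 6.55 CPM in WT, 3.77 and 2.59 CPM in the cKO libraries, 5.84 and 5.19 CPM in WT/AD, and 0 and 5.93 CPM in cKO/AD. The cKO libraries lay below those of WT, and the cKO/AD libraries were far apart, one at 0 and the other within the range of WT. The log2 difference was -0.92 for cKO against WT (SE 1.51, adjusted p = 0.983) and -0.89 for cKO/AD against WT/AD (SE 1.5, adjusted p = 0.721), so that changes of several-fold in either direction were not detectable at this spread.

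Of the 9 adaptors and receptor-proximal kinases and ligases, Irak2, an IRAK-family component of the MyD88 complex, fell in cKO/AD. It was also the adaptor with the highest mean CPM. It measured 117 and 108 CPM in WT, 64.7 and 83.7 CPM in the cKO libraries, 111 and 114 CPM in WT/AD, and 33.8 and 56.5 CPM in cKO/AD. Both cKO/AD libraries were below all others, with the cKO libraries between them and the groups without the knockout. The log2 fold change for cKO/AD against WT/AD was -1.31 (SE 0.27, adjusted p = 0.0171), and -0.26 (adjusted p = 0.405) with the GC correction; the call was lost without either WT/AD library. For cKO against WT the log2 difference was -0.61 (SE 0.27, adjusted p = 0.691).

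Myd88, the adaptor of all Toll-like receptors but TLR3, measured 88.0 and 93.2 CPM in WT, 66.7 and 81.1 CPM in the cKO libraries, 75.3 and 76.7 CPM in WT/AD, and 10.5 and 54.0 CPM in cKO/AD. The first cKO/AD library stood far below the second, and the difference from WT/AD was not called (log2 -1.24, SE 0.60, adjusted p = 0.19). Ticam1, which encodes TRIF, the adaptor of TLR3 and of endosomal TLR4, stood at 19.1 and 17.8 CPM in WT/AD and at 6.76 and 2.32 in cKO/AD, just outside the threshold of edgeR (log2 -2.03, SE 0.61, adjusted p = 0.0543); DESeq2 (adjusted p = 0.00985) and limma-voom (adjusted p = 0.0251) called Ticam1. Irak3, an inhibitory member of the IRAK family and the lowest adaptor by mean CPM, measured 4.42 and 8.91 CPM in WT, 8.03 and 6.19 CPM in the cKO libraries, 6.56 and 8.04 CPM in WT/AD, and 14.9 and 9.5 CPM in cKO/AD. Its cKO/AD libraries were above all others (log2 0.74, SE 0.53, adjusted p = 0.359). Irak1, the kinase that links MyD88 to TRAF6, was at 33.8 and 40.9 CPM in cKO/AD and at 36.0 and 30.1 in WT/AD, with overlap (log2 0.18, SE 0.28, adjusted p = 0.696); with the GC correction its log2 difference was 1.54 and called (adjusted p = 0.0347).

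Irak4, the kinase that starts the IRAK cascade, was singled out because it had the smallest unadjusted p of the 44 members for cKO against WT. It measured 23.9 and 25.5 CPM in WT, 10.3 and 11 CPM in the cKO libraries, 22.5 and 16.0 CPM in WT/AD, and 23.4 and 22.9 CPM in cKO/AD. Both cKO libraries lay below all 6 others. The log2 difference for cKO against WT was -1.22 (SE 0.31) and was not called in edgeR (adjusted p = 0.493), while DESeq2 called it (adjusted p = 0.0296). Irak4 also overlaps its neighbour Twf1 over 7.87% of its exon length on the opposite strand, and without a stated strand setting reads there cannot be told apart. The TRAF genes were not called: for cKO/AD against WT/AD, Traf6, the ligase that activates the TAK1 complex, was at 0.77 (adjusted p = 0.146), Traf2, which serves TNF receptors, at -0.65 (adjusted p = 0.355), and Traf3, which restrains the non-canonical pathway, at -0.41 (adjusted p = 0.595).

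Chuk was the member that rose and the kinase gene with the highest level. It measured 177 and 149.6 CPM in WT, 269 and 218 CPM in the cKO libraries, 127 and 147 CPM in WT/AD, and 352 and 375 CPM in cKO/AD. Both cKO/AD libraries were the highest of all, the cKO libraries came next, and no knockout library overlapped with a library without the knockout. Chuk rose by 1.41 on the log2 scale for cKO/AD against WT/AD (SE 0.20, adjusted p = 0.00689), and 0.86 (adjusted p = 0.0344) with the GC correction. The call was lost without the first WT/AD library (adjusted p = 0.0696). For cKO against WT the log2 difference was 0.58 (SE 0.20, adjusted p = 0.608), and the interaction was 0.83 (SE 0.28, adjusted p = 0.141), so that edgeR did not show the rise to differ between disease and control mice. DESeq2 called the Chuk interaction (0.86, adjusted p = 0.0383), as did edgeR without the first cKO/AD library (adjusted p = 0.0495) or without the second (adjusted p = 0.0404).

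The other 6 genes of the kinase complexes were not called in edgeR. Ikbkb, which encodes the IKK-beta kinase of the canonical pathway, lay between 107 and 135 CPM in all 8 libraries, with a log2 difference of -0.04 (SE 0.19) for cKO/AD against WT/AD. Ikbkg, the regulatory subunit NEMO, differed by 0.16 (SE 0.34). Of the TAK1 complex, Map3k7, the kinase itself, differed by -0.02 (SE 0.37), its partner Tab1 by -2.08 (SE 0.72, adjusted p = 0.0827, called by DESeq2 at 0.0124 and limma-voom at 0.0224), and Tab2 and Tab3, which bind ubiquitin chains, by 0.41 (SE 0.34) and 0.39 (SE 0.69). Tab3, the lowest kinase-complex gene, measured 4.66 and 7.50 CPM in WT, 4.26 and 4.08 CPM in the cKO libraries, 1.43 and 2.81 CPM in WT/AD, and 2.21 and 3.35 CPM in cKO/AD. Its WT/AD libraries were below those of WT (log2 -1.52, SE 0.70, adjusted p = 0.573).

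**Figure D3:**
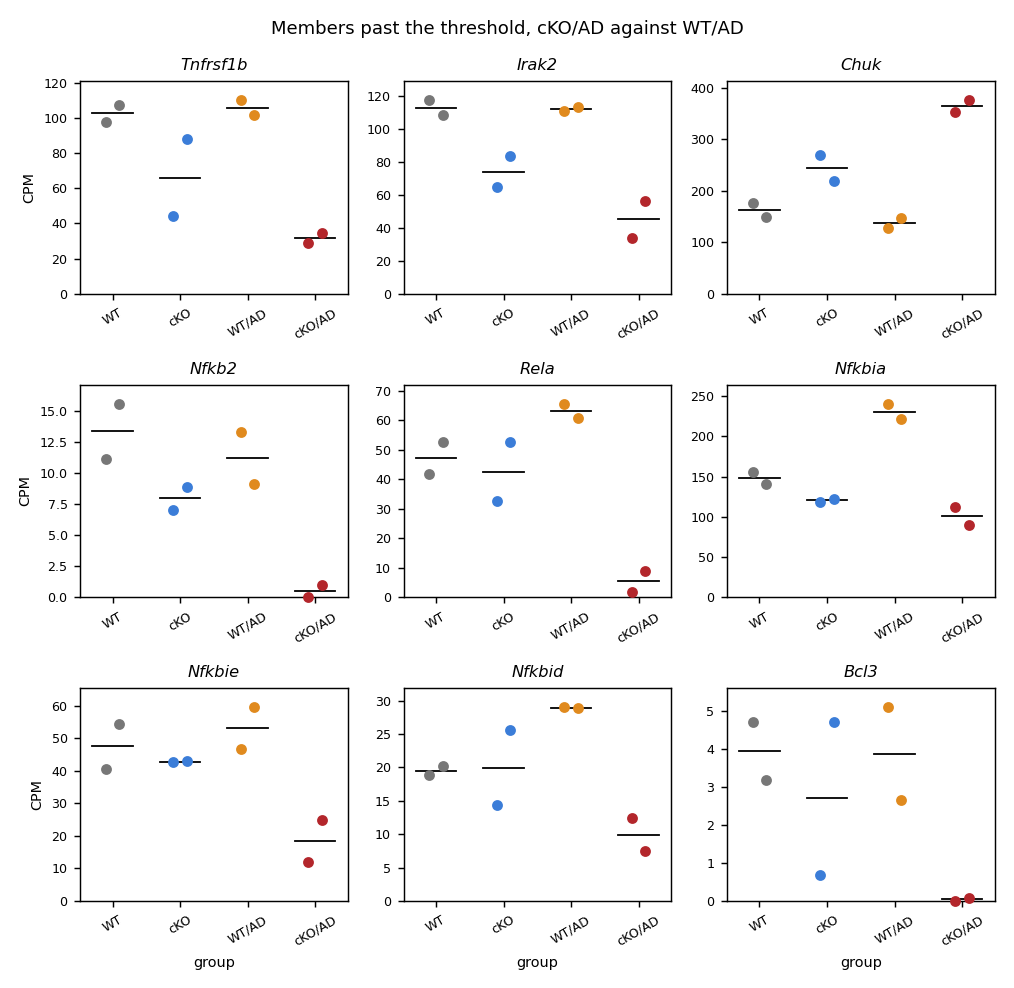
CPM (y axis, linear from 0) of the 9 members called for cKO/AD against WT/AD, in each of 8 libraries by group; points are libraries and black lines the mean of 2. Chuk is highest in cKO/AD, at 352 and 375 CPM, and the other 8 are lowest there, with Rela at 1.99 and 8.83 CPM against 60.8 and 65.6 in WT/AD.

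Of the 5 NF-kappaB subunits, Rela and Nfkb2 fell in cKO/AD. Rela, the transactivating subunit of the canonical dimer, measured 41.9 and 52.7 CPM in WT, 32.5 and 52.8 CPM in the cKO libraries, 65.6 and 60.8 CPM in WT/AD, and 1.99 and 8.83 CPM in cKO/AD. Both cKO/AD libraries lay far below the lowest of the others, and the WT/AD libraries were the highest. The log2 fold change for cKO/AD against WT/AD was -3.53 (SE 0.63, adjusted p = 0.0108), and -1.96 (adjusted p = 0.0322) with the GC correction. The call was lost without the first WT/AD library (adjusted p = 0.0667). Rela had a log2 difference of -2.97 for cKO/AD against cKO (SE 0.61, adjusted p = 0.06) and an interaction of -3.38 (SE 0.82, adjusted p = 0.0786), both short of the threshold, beside -0.15 (SE 0.56, adjusted p = 0.999) for cKO against WT.

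Nfkb2, the precursor of the non-canonical subunit, measured 11.2 and 15.6 CPM in WT, 7.09 and 8.91 CPM in the cKO libraries, 13.3 and 9.15 CPM in WT/AD, and 0.0568 and 0.981 CPM in cKO/AD. Again both cKO/AD libraries were far below the rest. Its log2 fold change for cKO/AD against WT/AD was -4.38 (SE 0.98, adjusted p = 0.0217), and -2.83 (adjusted p = 0.0682) with the GC correction. Without the first WT/AD library its adjusted p was 0.11, without the second 0.0616, and without the second WT library 0.0502. On the opposite strand, a gene known only by its clone name overlaps 11.6% of the exon length of Nfkb2 and Psd another 6.52%.

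Nfkb1, the precursor of the DNA-binding partner of Rela and the subunit gene with the highest level, measured 108 and 161 CPM in WT, 122 and 136 CPM in the cKO libraries, 139 and 167 CPM in WT/AD, and 61.4 and 109.2 CPM in cKO/AD. Its cKO/AD libraries lay below those of WT/AD but reached into the range of WT (log2 -0.84, SE 0.31, adjusted p = 0.103). Rel, the subunit c-Rel, stood the other way at 65.5 and 24.2 CPM in cKO/AD beside 21.2 and 19.2 in WT/AD (log2 1.15, SE 0.44, adjusted p = 0.109). It was not called in edgeR, whereas DESeq2 called it as higher (adjusted p = 0.0427). Relb, the transactivating partner of the non-canonical subunit and the lowest of the 5, measured 4.28 and 3.37 CPM in WT, 2.92 and 5.09 CPM in the cKO libraries, 5.56 and 4.63 CPM in WT/AD, and 3.41 and 1.87 CPM in cKO/AD. The log2 difference of -0.95 (SE 0.68, adjusted p = 0.358) was not called.

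All 8 inhibitors were lower in both cKO/AD libraries than in both WT/AD libraries, and 4 of them fell past the threshold. Of all tested genes, 35.1% lay lower without overlap and 10.2% fell. All inhibitors but Nfkbiz and Tnfaip3 have at least 55% GC. The median log2 fold change of all genes in that class was -1.43, and 33.7% of them were called. Nfkbia, which encodes IkappaB-alpha and is a rapid NF-kappaB target, measured 156 and 141 CPM in WT, 119 and 123 CPM in the cKO libraries, 240.2 and 221 CPM in WT/AD, and 113 and 89.8 CPM in cKO/AD. WT/AD was the highest group, and cKO/AD the lowest. Nfkbia had a log2 fold change of -1.19 for cKO/AD against WT/AD (SE 0.19, adjusted p = 0.00868), and -0.11 (adjusted p = 0.852) with the GC correction; the call was lost without the first WT/AD library (adjusted p = 0.0761). For WT/AD against WT the log2 difference was 0.64 (SE 0.19, adjusted p = 0.381), which was called when only those groups were fitted (adjusted p = 0.0306).

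Nfkbie, the gene of IkappaB-epsilon, measured 40.6 and 54.4 CPM in WT, 42.7 and 42.8 CPM in the cKO libraries, 46.8 and 59.4 CPM in WT/AD, and 11.8 and 24.7 CPM in cKO/AD. In cKO/AD both values were below all others (log2 -1.54, SE 0.37, adjusted p = 0.0273). With the GC correction the log2 difference was -0.48 (adjusted p = 0.305). Nfkbid, a nuclear IkappaB protein that acts through NF-kappaB subunits, measured 18.9 and 20.1 CPM in WT, 14.4 and 25.5 CPM in the cKO libraries, 29.0 and 28.8 CPM in WT/AD, and 12.4 and 7.41 CPM in cKO/AD. The cKO/AD libraries were the lowest and the WT/AD libraries the highest (log2 -1.55, SE 0.40, adjusted p = 0.0343). With the GC correction the sign changed, to 0.09 (adjusted p = 0.943).

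Bcl3, a nuclear IkappaB protein that binds homodimers of the DNA-binding subunits and the lowest inhibitor gene, measured 4.70 and 3.17 CPM in WT, 0.694 and 4.70 CPM in the cKO libraries, 5.09 and 2.65 CPM in WT/AD, and 0 and 0.0892 CPM in cKO/AD. The cKO/AD libraries held 2 counts together, against 195 in WT/AD. That is a level 77.4-fold lower, with an exact 95% interval of 21.1 to 643.7 that covers counting error only (adjusted p = 0.0285). The fitted log2 fold change, which depends on the prior count at such levels, was -6.18, and -4.81 (adjusted p = 0.0765) with the GC correction. Nfkbie, Nfkbid and Bcl3 each lost the call without any of 4 libraries, those of WT and of WT/AD.

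The inhibitors that were not called were Nfkbib, Nfkbiz, Tnfaip3 and Tnip1. Nfkbib, the gene of IkappaB-beta, measured 18 and 19.5 CPM in WT, 17.1 and 16.3 CPM in the cKO libraries, 32.4 and 32.3 CPM in WT/AD, and 25.3 and 14.6 CPM in cKO/AD. WT/AD lay above all others (log2 0.79 for WT/AD against WT, SE 0.33, adjusted p = 0.544; -0.70 for cKO/AD against WT/AD, SE 0.33, adjusted p = 0.179). It shares 14.5% of its exon length with Ccer2 on the opposite strand. Tnfaip3, a ubiquitin-editing enzyme that shuts the pathway off, differed by -0.39 (SE 0.36) for cKO/AD against WT/AD, its binding partner Tnip1 by -0.94 (SE 0.55), and Nfkbiz, a nuclear cofactor for secondary response genes, by -0.33 (SE 0.36).

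**Figure D4:**
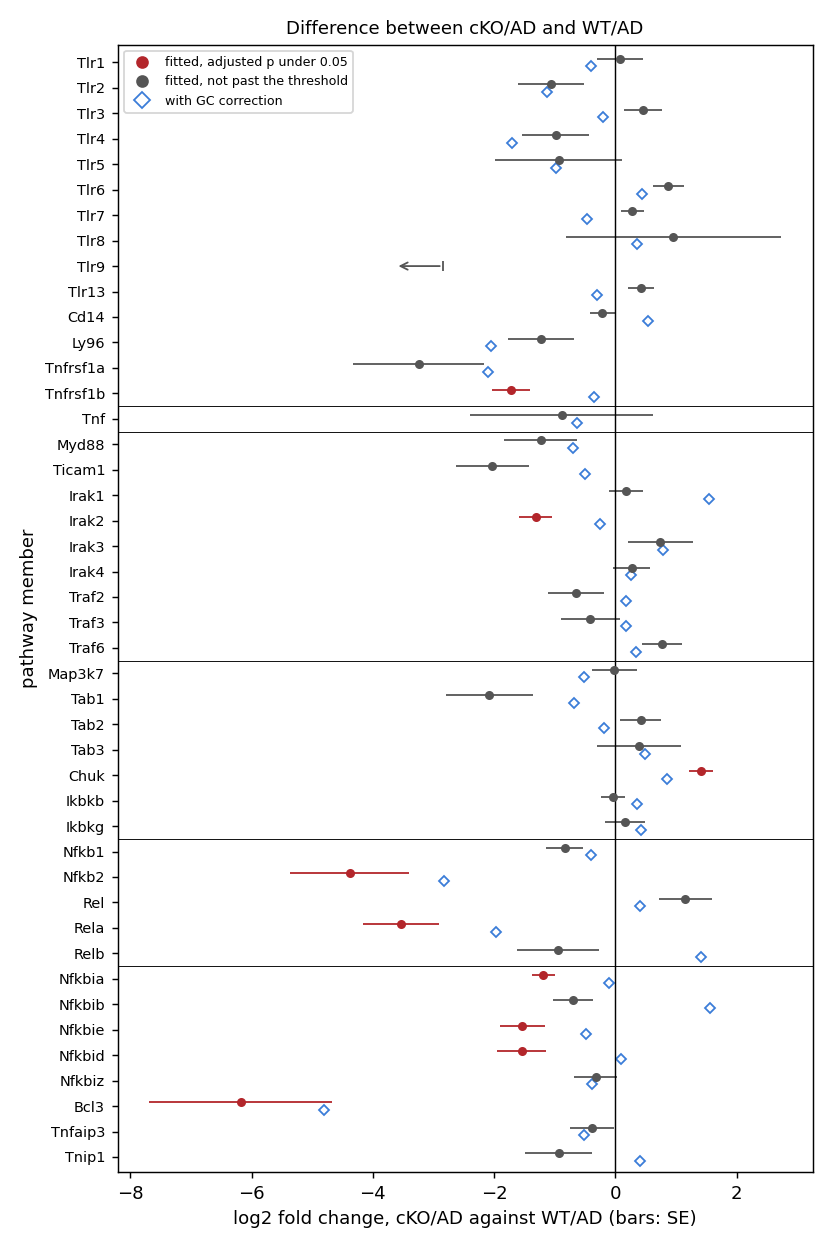
Log2 fold change of each member for cKO/AD against WT/AD (x axis), with bars of 1 SE, in red where the adjusted p was under 0.05 and in grey where not; open diamonds give the value with the GC correction, and Tlr9 is drawn as an arrow from its bound of -2.84. Rela stays at -1.96 and Chuk at 0.86 with the correction, while Nfkbia, Nfkbid, Irak2 and Tnfrsf1b move to between -0.36 and 0.09.

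Disease alone and the knockout alone gave no called member in edgeR. For WT/AD against WT, 0 of 44 were called in edgeR, beside 0.0453% of all tested genes, and 4 had an unadjusted p under 0.05, beside 8.99%. These were Tlr6 and Tlr13, lower in WT/AD, and Nfkbia and Nfkbib, higher. DESeq2 and limma-voom also called 0, beside 5.26% and 0.0951% of the genes they tested. WT/AD was lower without overlap for 16 members (36.4%, beside 25.9% of all genes) and higher for 13 (29.5%, beside 26.5%), and the median was -0.02 beside 0. By role, 6 of 8 inhibitors had a positive log2 difference, with a median of 0.33, and 5 of 7 kinase-complex genes a negative one, with a median of -0.52. Over all tested genes with at least 55% GC, the class of all inhibitors but Nfkbiz and Tnfaip3, the median was 0.40. Under 45% GC, the class of Map3k7, Tab2 and Chuk, it was -0.26. GC content and the log2 difference correlated at r = 0.45 (rho = 0.53) over the 44 members, in the opposite direction to cKO/AD against WT/AD; these comparisons share the WT/AD libraries.

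For cKO against WT, 0 members were called in edgeR, beside 0% of all genes, and 5 had an unadjusted p under 0.05 (Irak4, Cd14, Tlr6 and Tlr7 lower and Chuk higher), beside 7.23%. DESeq2 called Irak4, beside 1.87% of its genes, and limma-voom called 0 members, beside 0.0136%. In cKO, 32 of 44 members had a negative log2 difference, with a median of -0.28 beside -0.02 over all genes and -0.06 over genes of at least 5 CPM. The knockout was lower without overlap for 20 members (45.5%, beside 26%) and higher for 4 (9.09%, beside 23.3%): Chuk, Rel, Map3k7 and Traf6. Without TMM factors both medians were higher, at -0.13 for members and 0.13 for all genes, and the members stayed below all genes. The summed microglial markers were lower in cKO than in WT too, as given above. Sums of endothelial, mural cell, astrocyte, neutrophil and monocyte markers were also lower, but those of oligodendrocyte, neuron and border macrophage markers were higher. Oligodendrocyte markers summed to 4966 and 4459 CPM in WT and 6449 and 6116 CPM in the cKO libraries, and neuron markers to 1442 and 1467 CPM and 1763 and 1600 CPM. The sum of 12 endothelial markers was 872 and 868 CPM in WT and 258 and 272 CPM in the cKO libraries. That of 10 mural cell markers was 1187 and 1194 CPM in WT and 392 and 339 CPM in cKO. That of 9 astrocyte markers was 1559 and 1632 CPM in WT and 941 and 894 CPM in cKO. All 12 endothelial markers, all 9 tested mural cell markers, all 9 astrocyte markers and 14 of 14 microglial ones were lower without overlap, and none was called. Their part in the members' differences was not tested.

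For cKO/AD against cKO, 0 members were called, beside 0.217%, and 13 had an unadjusted p under 0.05, beside 23.4%; DESeq2 called 9, beside 16.4% of its genes, and limma-voom 0, beside 0.543%. The smallest adjusted p values were 0.06 for Rela, 0.0722 for Cd14 and 0.0753 for Nfkb2. cKO/AD was lower without overlap for 17 members (38.6%, beside 31.1%) and higher for 8 (18.2%, beside 20.3%). The interaction called 0 members, beside 0.0272%, with 13 at an unadjusted p under 0.05, beside 21.9%; limma-voom called Tlr6 and Rela, beside 3.1%, and DESeq2 called 7, beside 13.9%. The smallest adjusted p values were those of Tlr6 and Rela, given above.

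**Figure D5:**
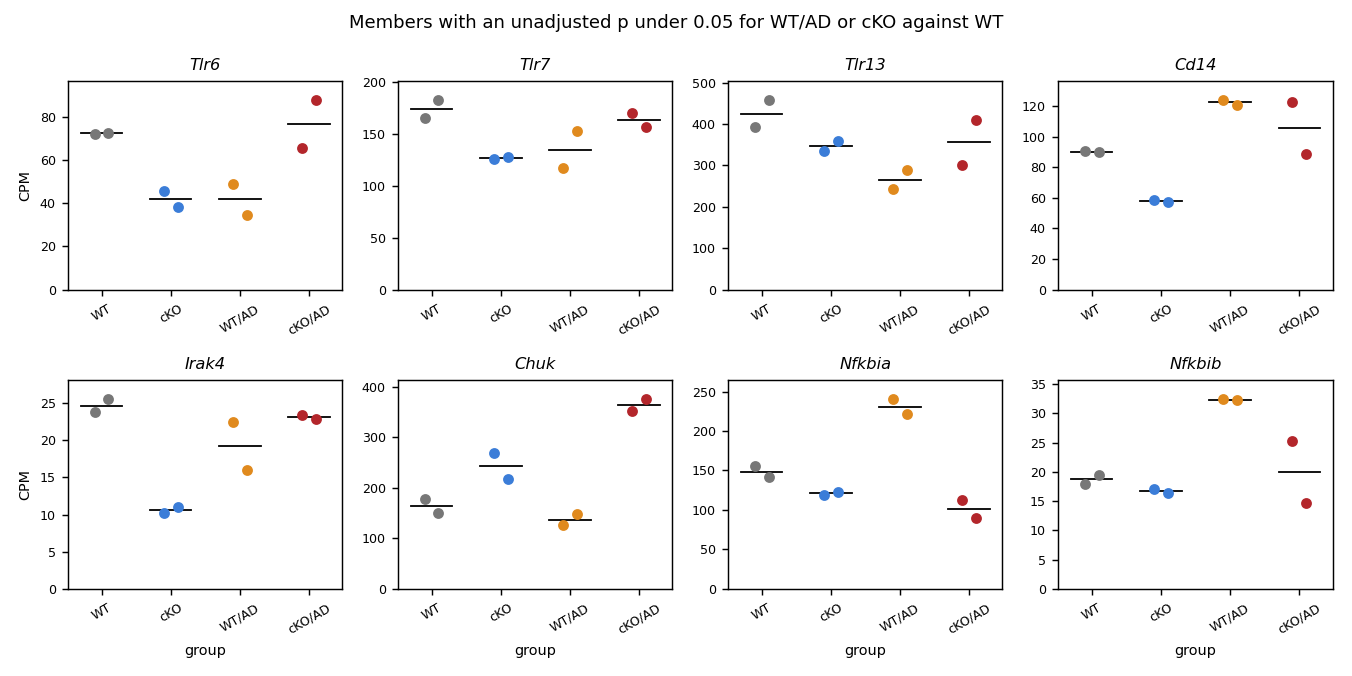
CPM (y axis, linear from 0) in each library by group for the 8 members with an unadjusted p under 0.05 for WT/AD or cKO against WT, none of which was called in those comparisons; points are libraries and black lines the mean of 2. Irak4 is lowest in cKO, at 10.3 and 11 CPM, Tlr6 is low in both cKO and WT/AD, and Nfkbia and Nfkbib are highest in WT/AD.

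Beyond the members, 60 further pathway genes and 34 NF-kappaB target genes were listed, of which 60 and 29 were tested. For cKO/AD against WT/AD, 6 of the further pathway genes rose and 13 fell, which is 31.7% of them beside 18% of all tested genes and 27.8% of those with at least 5 CPM. With the GC correction 7 were called (11.7%, beside 6.29%), 6 of them among these 19 and in the same direction. The 4 with the smallest adjusted p were Mapk8, Cyld, Rbck1 and Tbk1. Mapk8, the JNK kinase that branches from the TAK1 complex, rose from 68.6 and 89.0 CPM in WT/AD to 489.8 and 317 in cKO/AD (log2 2.35, SE 0.29, adjusted p = 0.00642). Cyld, a deubiquitinase that restrains the pathway, rose by 1.45 (SE 0.20) and Tbk1, the kinase of the interferon branch, by 1.31 (SE 0.18), both with an adjusted p of 0.00689. Rbck1, a subunit of the linear ubiquitin ligase, fell from 88.9 and 73.9 CPM to 8.74 and 16.2 (log2 -2.70, SE 0.36, adjusted p = 0.00689). Mapk8, Cyld and Tbk1 kept their calls with the GC correction, at 1.61, 0.74 and 1.01, and Rbck1 was at -0.82 (adjusted p = 0.0636).

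Of the 29 target genes tested, 2 rose and 4 fell for cKO/AD against WT/AD, or 20.7%, near the 18% of all tested genes; their median was -0.80 beside -0.14. With the GC correction 2 were called (6.9%, beside 6.29%). The 4 with the smallest adjusted p were Socs3, Slc2a6, Icam1 and Cd44. Icam1, an adhesion molecule, fell from 145 and 150.2 CPM to 38.4 and 65.4 (log2 -1.51, SE 0.31, adjusted p = 0.0162), and kept the call with the GC correction at -1.11. Socs3, an inhibitor of cytokine signalling, fell by 2.57 (SE 0.42, adjusted p = 0.00944) on the log2 scale and Slc2a6, a sugar transporter of macrophages, with a log2 fold change of -2.08 (SE 0.42, adjusted p = 0.0152); with the GC correction they were at 0.01 and -0.45. Cd44, a hyaluronan receptor, rose by 1.80 (SE 0.42, adjusted p = 0.024), from 12.3 and 17.1 CPM in WT/AD to 71.3 and 31.4 CPM in cKO/AD; with the GC correction it was at 1.76 (adjusted p = 0.0528).

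Ccl3, a chemokine and NF-kappaB target, was the listed gene called with disease in both genotypes. It measured 11.4 and 12.2 CPM in WT, 10.8 and 7.42 CPM in the cKO libraries, 102 and 98.2 CPM in WT/AD, and 114 and 68.8 CPM in cKO/AD. Every library with disease was far above every library without it. The log2 fold change was 3.08 for WT/AD against WT (SE 0.32, adjusted p = 0.0353) and 3.33 for cKO/AD against cKO (SE 0.33, adjusted p = 0.022). It was the single call among the 29 target genes in each of these comparisons, where no further pathway gene was called.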

How the data were processed

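RNA-seq was done on microglia isolated from mouse brain, in 4 groups of 2 libraries set from the source names. Trizol was used to extract RNA and an Illumina TruSeq kit to build libraries, per the labels' protocols. The authors deposited whole-number read counts per gene for 8 libraries, not normalised; 0 columns were left unused. Per the submitters' processing notes the genome build was mm9. Aligner, counter and strandedness: not given in the sources used here. Transcript GC content, exon length and gene overlaps came from GENCODE M21, a later build, and 99.87% of tested genes had a GC value.

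Counts were tested with edgeR 4.0.16 in R 4.3.3 (filterByExpr, TMM, quasi-likelihood, two-sided), with 1 group-means model over 8 libraries and 4 residual degrees of freedom. The 5 tests were disease within each genotype (WT/AD against WT; cKO/AD against cKO), knockout within each disease state (cKO/AD against WT/AD; cKO against WT) and the interaction; p-values were Benjamini-Hochberg adjusted over 22089 genes, with a threshold of 0.05. CPM used the TMM-scaled library size. A group at 0 was bounded by 3 counts over the group. Intervals and floors cover counting error only. The labels do not say whether same-numbered libraries were paired, and the main model did not pair them. The 6 correlations of same-numbered deviations lay between -0.033 and 0.061, and whether such libraries shared a batch was not tested.

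Alternatives were DESeq2 1.42.0, limma-voom (limma 3.58.1), DESeq2 size factors, no TMM, no filter, only the groups compared, a replicate block, a GC correction (loess, span 0.4, fitted to genes whose mean log2 CPM exceeded 2, added as an offset), that correction with the block, leaving out each library, and, chosen after seeing the data, voom with a weight per group. The scripts were tested on simulated data. The members, gene lists and tests were chosen with earlier results of these data known. Values per library are given for members called in any test, for the highest and lowest member by mean CPM in each role, and for Tnf, Tlr2, Tlr4, Cd14, Myd88, Rela, Nfkb1 and Nfkbia; of the other lists, up to 4 called genes per comparison are named.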

Additional observations from a re-analysis of the deposited data

How the results depend on the processing

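For cKO/AD against WT/AD, 9 were called; DESeq2 called 14, no filter gave 18, only the groups compared 0, the GC correction 3 with or without the replicate block, and a weight per group in voom, an alternative chosen after seeing the data, 5. For cKO/AD against cKO, DESeq2 called 9 and no filter gave 10. For the interaction, DESeq2 called 7, limma-voom 2, no filter gave 6 and a weight per group 1. For WT/AD against WT, only the groups compared gave 2 and a weight per group 3; for cKO against WT, DESeq2 called 1. Leaving out 1 library at a time gave 0 to 3 calls for WT/AD against WT, 0 to 1 for cKO against WT, 0 to 23 for cKO/AD against WT/AD, 0 to 22 for cKO/AD against cKO and 0 to 23 for the interaction, where a lone library is assumed to vary like the other groups; the largest counts came from leaving out a cKO/AD library. Fewer samples were fitted when only the groups compared were used or a library was left out. The cause of the other shifts was not tested. Shares of all genes called are given above for DESeq2, limma-voom and the GC correction. For the other fits they are not given here, and those counts are not a result about the pathway.

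With the replicate block, 9 members were again called for cKO/AD against WT/AD, with Nfkb1 called (adjusted p = 0.0399) and Nfkbid not (adjusted p = 0.0524); Ccl3 for WT/AD against WT lost its call (adjusted p = 0.0669). Nfkbid reversed to a log2 difference of 0.0897 with the GC correction and 0.0437 with that correction and the block. Of the 9 called members, none changed sign when a library was left out.

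With 2 libraries a group, and 17 of 44 members over 2-fold apart between the cKO/AD libraries, uncalled differences are not shown to be absent.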
